A study of Vitis vinifera with 4 samples.

Results

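Tight event pairs are places where MYBPA1, a grapevine transcription factor, was given 2 binding events at most 200 bp apart with no other event nearby. They come from DAP-seq (DNA affinity purification sequencing), which incubates an in vitro translated, tagged protein with purified genomic DNA and sequences the fragments that stay bound. Event centres on chr01 to chr19 were sorted, and neighbours at most 1000 bp apart were joined into groups. Groups of exactly 2 events with centres at most 200 bp apart were kept. This gave 2576 events in 1288 pairs, out of 29836 events on chr01 to chr19 and 30318 in the whole list. The members made up 8.63% of the events on chr01 to chr19 (95% Wilson interval 8.32 to 8.96%). The intervals here cover counting error only and treat events as independent, which the 2 events of a pair are not.

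The study held 2 libraries of MYBPA1 and 2 of pIX-HALO, the tag without a transcription factor. All 4 used genomic DNA from young leaves of the cultivar Pinot Noir (clone PN-94), and both proteins carried a HALO tag and were made in rabbit reticulocyte lysate. The data are 1 list of MYBPA1 events, with no values per library, so replicate error cannot be given and no difference below was tested. Values of different classes of events stand side by side as descriptions. Library depth is unknown.

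MYBPA1 belongs to the R2R3-MYB family, whose paired MYB repeats read short DNA elements, and is known in grapevine as an activator of proanthocyanidin (condensed tannin) genes in berry skin and seed. R2R3-MYB proteins of this kind are known to act on flavonoid genes together with bHLH and WD40 partners. Those partners were not named among the proteins of the assay, and the DNA carried no chromatin. A pair is therefore 2 nearby events called on DNA retained in the tube and does not show occupancy in a cell. Whether both events of a pair are separate binding positions was not tested. The genome build of the coordinates is not given in the sources used here, so no pair was assigned a gene or a sequence, and pairs are named by chromosome and event centre.

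The spacing of the 2 centres had a median of 122 bp, with quartiles of 92 and 153 bp. These are the values the pairs were chosen on. All events were written with 1 width, such that a pair at the median spacing shares 79 bp, the closest pair 189 bp and a pair at 200 bp 1 bp. The fullest class of 10 bp was 120 to 129 bp, with 120 pairs, and the classes on either side held 110 and 100. Below it the counts thinned to 32 pairs at 40 to 49 bp, 14 at 30 to 39 bp and 4 under 30 bp in all. Only 51 pairs (3.96%) were spaced by 50 bp or less, 400 (31.1%) by 100 bp or less and 946 (73.4%) by 150 bp or less. From 100 to under 150 bp each single distance held between 4 and 19 pairs, with a median of 11. The ratio of variance to mean of these 50 counts was 1.21, where independent counts with an even expectation would give a value near 1. The sampling spread of this ratio was not computed, so no departure from an even expectation can be read from it.

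**Figure D1:**
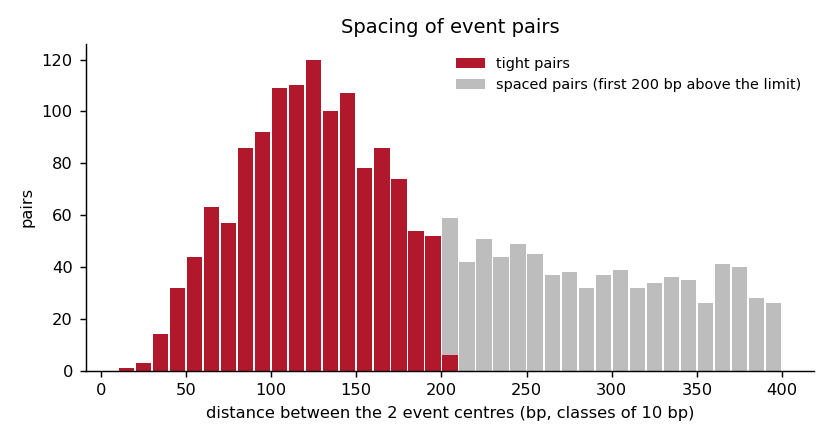
Number of event pairs (vertical axis) by distance between centres in classes of 10 bp (horizontal axis), with tight pairs in red and, beyond the limit, spaced pairs up to 400 bp in grey. The class of 200 to 209 bp holds 6 tight pairs at exactly 200 bp with 53 spaced pairs stacked on them, and the counts peak at 120 to 129 bp and pass the limit without a step.

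The limit of 200 bp does not fall at a break in the list. In all, 6 pairs had exactly 200 bp and another 6 were 1 bp wider. There were 106 tight pairs in the last 20 bp inside the limit and 102 spaced pairs in the first 20 bp beyond it. Just inside the limit, the pair on chr18 at 9894354 and 9894554 had signals of 52.8 and 110.3, and the pair on chr17 at 11592890 and 11593090 had 71 and 75. Just outside it, pairs wider by 1 bp had signals of 120.2 and 58.8 on chr07 (25583175 and 25583376) and of 69.1 and 41.9 on chr13 (2602716 and 2602917). The signal is the authors' own value of event strength, with unstated scaling.

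Members had a higher median signal than the other classes of events. Their median signal was 62.1 (95% binomial order-statistic interval 59.5 to 64.6). It was 49.05 (48 to 50.5) in spaced pairs, whose centres lie over 200 and up to 1000 bp apart, 54.9 (53 to 57.2) in groups of 3 or more and 48 (47.4 to 48) in single events. The quartiles were 40.4 and 109.8 in members, against 35 and 74 in single events. The shift was present at the low end too, since 8.62% of members and 13.0% of single events had a signal under 30. Of the members, 1637 (63.5%, 61.7 to 65.4%) lay above 49.1, the median of the whole list, where the background over chr01 to chr19 was 49.9%. The top 1% of the list starts at a signal of 392 and took in 51 members (1.98%, 1.51 to 2.59%), with a background of 0.912%. Members carried 11.4% of the summed signal of chr01 to chr19 with 8.63% of its events.

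The 2 signals of a pair were usually unequal but of the same order. The stronger event had a median signal of 88.9 (quartiles 56.8 and 154.6) and the weaker 45.4 (33.6 and 68.6). The stronger was a median of 1.69 times the weaker (1.63 to 1.75), with quartiles of 1.31 and 2.54. In 115 pairs (8.93%) the signals differed by less than 1.1 times, in 503 (39.1%) by 2 times or more, in 76 (5.90%) by 5 times or more and in 7 by 10 times or more. Spaced pairs had nearly the same median ratio, 1.65 (1.61 to 1.71). The absolute levels differed more, with medians of 88.9 and 45.4 for the stronger and weaker event of a tight pair, against 71.7 and 38.3 in a spaced pair. Both events lay above the list median in 566 tight pairs (43.9%, 41.3 to 46.7%) and in 575 of 2149 spaced pairs (26.8%, 24.9 to 28.7%). Neither did in 217 tight pairs (16.8%) and 579 spaced pairs (26.9%).

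**Figure D2:**
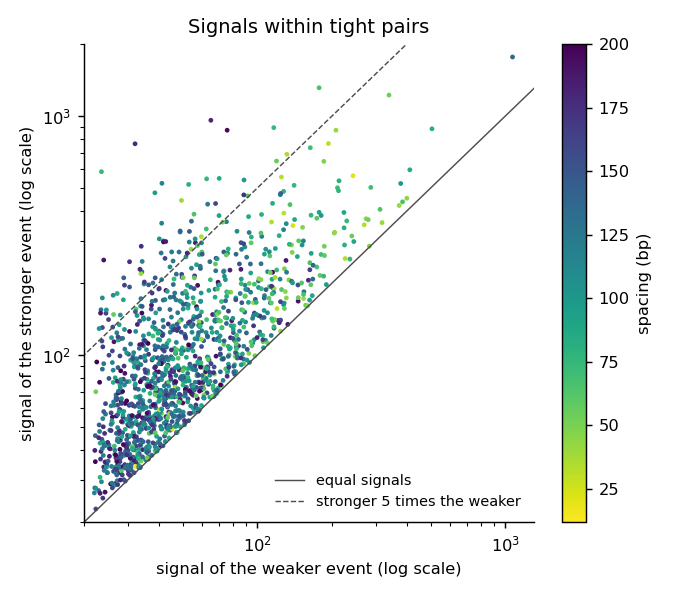
Signal of the stronger event (vertical axis, log scale) against the weaker event (horizontal axis, log scale) for the 1288 tight pairs, coloured by spacing in bp. The solid line marks equal signals and the dashed line a stronger event at 5 times the weaker, beyond which 76 pairs lie.

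The events of a pair also ranked together. Across the 1288 tight pairs, Spearman's rho between the event at the lower coordinate and the one at the higher was 0.305. It was 0.119 across the 2149 spaced pairs. Pairs are positions of 1 list and not replicates. The 2 events of a pair, tight or spaced, lie on the same local DNA. Whether local copy number plays a part in these values was not tested, and no p is given. The stronger event lay at the higher coordinate in 603 pairs (46.8%, 44.1 to 49.5%) and in 1098 spaced pairs (51.1%, 48.98 to 53.2%). Coordinate order has no biological direction, and 1 pair had equal signals, 47.5 each, on chr09 at 4813648 and 4813739.

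Within the tight pairs, signal was higher at closer spacing. The 51 pairs spaced by 50 bp or less had medians of 208.7 for the stronger event (172.2 to 288.6) and 120 for the weaker (92.4 to 133.9). In pairs of 51 to 75 bp the medians were 141.2 and 73.7, and in pairs above 75 and up to 100 bp they were 96.3 and 50.5. In the widest tight pairs, above 175 bp, they were 74.0 and 34.5, against 65.2 and 37.7 in spaced pairs up to 250 bp. Beyond the limit the medians stayed between 65.2 and 74 for the stronger event and between 36.7 and 40.4 for the weaker, out to 1000 bp. Weak partners were scarce in the closest pairs, since the weaker event had a signal under 30 in 0 of 51 pairs at up to 50 bp (by 3 counts of the total, a count of 0 allows up to 5.88%, and the upper Wilson limit is 7.0%), in 6 of 144 from 51 to 75 bp (4.17%) and in 41 of 134 above 175 bp (30.6%).

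The ratio of the 2 signals did not follow spacing. Its median lay between 1.56 and 1.80 in the 7 spacing bands of tight pairs, and Spearman's rho between spacing and ratio was -0.01 over the 1288 pairs. For spacing against the stronger and the weaker signal, rho was -0.30 and -0.37. In the 2149 spaced pairs the same values were 0.04 and 0.06. These correlations are across pairs of 1 list and carry no p.

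**Figure D3:**
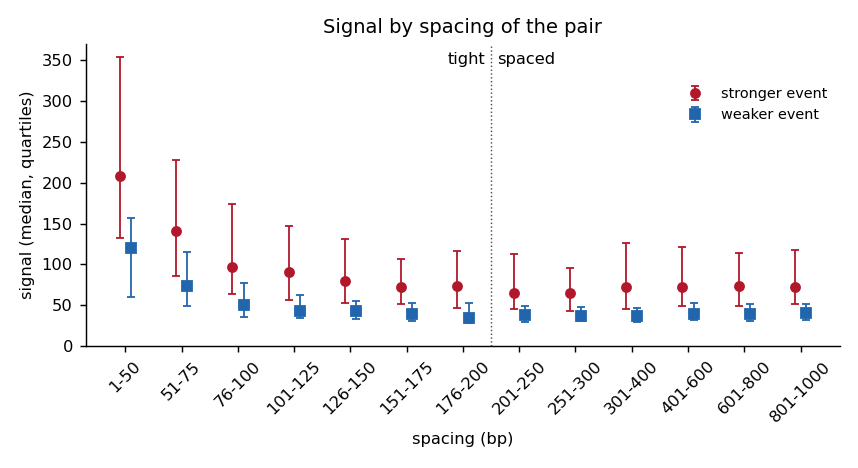
Signal (vertical axis, medians with quartiles as bars) of the stronger event in red and the weaker in blue, by spacing band in bp (horizontal axis), with the limit of 200 bp dotted. Both medians are highest at 50 bp or less (208.7 and 120). They are 74.0 and 34.5 above 175 bp in tight pairs, and 65.2 and 37.7 in spaced pairs up to 250 bp.

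Signals of members were rarely whole numbers. Of the members, 261 (10.1%, 9.03 to 11.4%) had a whole-number signal, defined as within 0.05 of one, against a background of 58.8%. The share was 43.2% in spaced pairs, 31.0% in groups of 3 or more and 69.9% in single events. Signals in the list have 1 decimal, so a signal is either whole or off by at least 0.1. The 2 signals of a pair nevertheless tended to add up to a whole number. In 1127 pairs both signals were fractional, and in 885 of these (78.5%, 76.03 to 80.8%) the sum was whole. In 951 (84.4%) it was whole or off by 0.1, as rounding of each signal allows. Spaced pairs with 2 fractional signals had a whole sum in 910 of 1055 (86.3%, 84.0 to 88.2%). Their sum was whole or off by 0.1 in 942 (89.3%). Among fractional single events taken 2 by 2 in order along each chromosome, 702 of 6422 sums were whole (10.9%, 10.2 to 11.7%). Sums off by 0.1 were not counted for single events, so the 84.4% has no counterpart there.

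The pair on chr06 at 15187429 and 15187450 shows the pattern, with signals of 242.9 and 562.1 that add to 805. On chr02, 347.9 and 139.1 at 15573988 and 15574011 add to 487. On chr06, 766.7 and 193.3 at 12978466 and 12978497 add to 960. In each of these pairs neither signal is whole and the sum is. Division of shared reads between neighbouring events by the caller was not tested.

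The share of pairs with a whole sum was 64.7% at spacings of 50 bp or less, 70.8% above that and up to 100 bp, 78.0% up to 150 bp and 81.6% up to 200 bp. It reached 94.8% in spaced pairs above 400 and up to 450 bp, and was 55.6% above 700 and up to 750 bp and 48.3% above 950 bp. Single signals were whole in 9.60 to 13.7% of members in these 4 classes and in 8.10 to 23.2% of spaced events up to 500 bp. The share then stood at 58.9% above 500 and up to 550 bp and peaked at 91.2% up to 600 bp. Beyond that it was 83.9% up to 650 bp, 73.2% above 700 and up to 750 bp and 65.5% above 950 bp, near the 69.9% of single events. Fractional signals were thus most frequent at spacings up to 500 bp, tight pairs included, but occurred at all spacings.

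**Figure D4:**
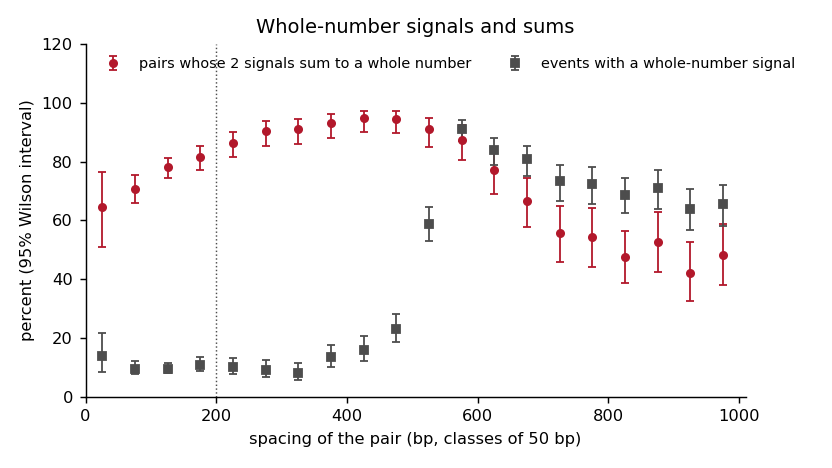
Percent (vertical axis, with 95% Wilson intervals) of pairs whose 2 signals sum to a whole number in red and of events with a whole-number signal in grey, by spacing of the pair in classes of 50 bp (horizontal axis), with the limit of 200 bp dotted. Tight pairs sit at 64.7 to 81.6% for sums and 9.60 to 13.7% for single signals, and single signals are whole most often above 550 and up to 600 bp (91.2%), with 65.5% above 950 bp.

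Taken as units, tight pairs had a higher median summed signal than spaced pairs. The summed signal had a median of 139 (133 to 144), with quartiles of 94.3 and 223, and exceeded the list median in 1285 of 1288 pairs. Spaced pairs summed to a median of 112 (109.5 to 116). The sum of 102 of 1288 tight pairs and of 85 of 2149 spaced pairs reached 392, the start of the top 1% of the whole list. In 47 tight pairs a member reached it on its own strength, and in 4 both did. A sum of 2 signals has a floor of 44, because each event must reach the list's lowest signal of 22, so it is not on the same footing as the signal of a single event. That nearly all sums exceed the list median of 49.1 was therefore nearly fixed in advance.

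The strongest pair lay on chr13 at 26112272 and 26112409, 137 bp apart, with signals of 1068.5 and 1764.5 and a sum of 2833. The next was on chr09 at 16881755 and 16881808, where signals of 339.2 and 1222.8 summed to 1562. On chr14 at 6354601 and 6354668 the signals were 1311.6 and 177.3. These 3 pairs hold the 3 members (0.116%) whose −log10 p is written as 999, the largest value in the list. Over chr01 to chr19, 12 of 29836 events (0.040%) had that value, 6 of them single events. In each of these 3 pairs the event with 999 is the stronger one.

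On chr08 at 90003 and 90085 both signals were high, at 883.3 and 505.7. A pair on chr14 at 26789082 and 26789124 had 207.3 and 871.7. The pair on chr02 at 6224822 and 6225000 had 64.9 and 959.1, and that on chr03 at 8196461 and 8196534 had 116.4 and 893.6. The tenth by sum lay on chr05 at 25566027 and 25566222, with 75.5 and 871.5. Among the 10 strongest pairs, the ratio of stronger to weaker thus ran from 1.45 to 14.8, so a high sum came both from matched events and from a single dominant one.

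The eighth by sum, on chr10 at 16234978 and 16235063, had signals of 595.3 and 411.7 but −log10 p of 114.5 and 7.73. Its events lie 85 bp apart and differ 1.45 times in signal. The pair that completes the 4 with both members in the top 1% lay on chr12 at 4179631 and 4179675, with signals of 452.6 and 400.4 and −log10 p of 118.0 and 112.9. Those 2 pairs show that like signals within a pair can go with like or with very unlike p.

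The most unequal pair lay on chr13 at 25877619 and 25877693, with signals of 584.5 and 23.5, a ratio of 24.9. On chr14 at 29525607 and 29525786 the signals were 32.1 and 764.9, a ratio of 23.8. The pair on chr02 at 6224822, already given for its sum, was the next at 14.8. Pairs on chr06 at 20623659 and 20623776 (41.2 and 522.6) and on chr04 at 1649791 and 1649887 (476.9 and 38.6) had ratios of 12.7 and 12.4. In the order given, the weaker events of these 5 pairs had −log10 p of 2.78, 2.39, 15.8, 3.93 and 5.76.

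At the other extreme were pairs of strong, nearly equal events. In 76 pairs (5.90%) both signals exceeded 135.3, the 90th percentile of the list. The most equal of these was on chr12 at 21990947 and 21990993, with 160.6 and 159.4. Next came chr18 at 7769574 and 7769622, with 285.3 and 282.7, and chr09 at 8905020 and 8905075, with 161.5 and 156.5. Pairs on chr15 at 9744317 and 9744412 (189.6 and 197.1) and on chr12 at 16269883 and 16269978 (169.7 and 162.3) followed. All 5 had spacings under 100 bp, of 46 to 95 bp, a range in which both signals also had higher medians.

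The closest pair, on chr18 at 10763595 and 10763607, was 12 bp apart and weak, with signals of 34.2 and 32.2. The third closest, on chr13 at 16319148 and 16319170, also had low signals, of 45.4 and 49 at 22 bp. The other 3 of the 5 closest, at 21, 23 and 31 bp, are the pairs with sums of 805, 487 and 960 given above. The last of these was tied in spacing with 2 pairs of lower sum. Neither weak pair had a whole sum, at 66.4 and 94.4.

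Members had smaller p than other events, also at like signal. The median −log10 p was 11.3 (10.7 to 11.9) in members, 6.53 (6.27 to 6.80) in spaced pairs, 8.19 (7.70 to 8.85) in groups of 3 or more and 6.05 (6.01 to 6.20) in single events. A −log10 q of at least 5 was reached by 1933 members (75.04%, 73.3 to 76.7%), where the background was 58.5%. Both events reached it in 762 tight pairs (59.2%, 56.5 to 61.8%) and in 730 spaced pairs (34.0%, 32.0 to 36.0%). Neither reached it in 117 tight pairs (9.08%) and 396 spaced pairs (18.4%).

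Within each of 6 bands of signal, members had the highest median −log10 p of the 4 classes. For signals of 60 to under 100, the median −log10 p was 14.9 in 605 members (14.5 to 15.6), 12.04 in 881 events of spaced pairs and 11.2 in 4440 single events (11.1 to 11.4). The median signals in that band were 76.4, 74 and 73. For signals of 100 to under 200, the −log10 p medians were 30.9 in members (29.9 to 31.9), 26.5 in spaced pairs and 25.1 in single events (24.7 to 25.5). For 30 to under 40 they were 4.33 (4.04 to 4.67), 3.57 and 3.57, and for 22 to under 30 they were 3.15 (2.85 to 3.27), 2.70 and 2.83. The separation was thus smallest at the weakest signals, where the interval of members reaches that of single events. Groups of 3 or more lay between members and single events in all 6 bands.

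Within a pair, p did not always follow signal. In 124 pairs (9.63%, 8.13 to 11.4%) the stronger event had the lower −log10 p, as it did in 259 spaced pairs (12.1%, 10.7 to 13.5%). The nearly equal pair on chr18 at 7769574 and 7769622 had −log10 p of 71 and 58.5, and that on chr15 at 9744317 and 9744412 had 32.2 and 57.6. How the control libraries entered each p is not given in the sources used here.

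**Figure D5:**
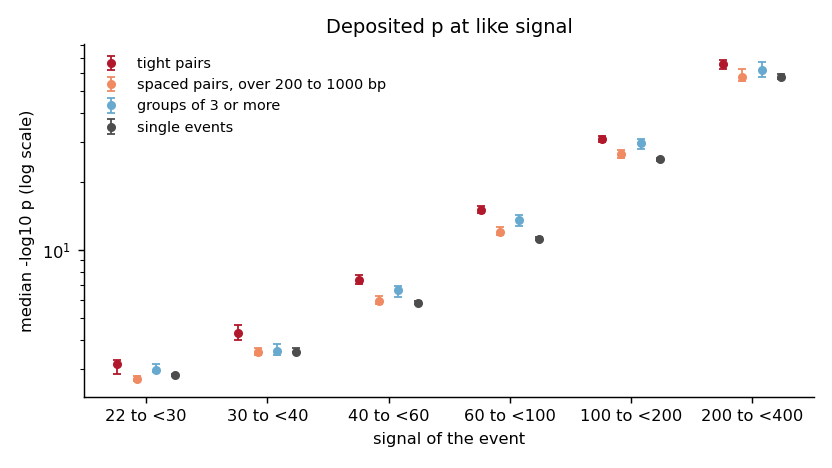
Median −log10 p (vertical axis, log scale, with 95% order-statistic intervals) in 6 bands of signal (horizontal axis) for tight pairs in red, spaced pairs in orange, groups of 3 or more in blue and single events in grey. Tight pairs have the highest median in each band, at 14.9 against 11.2 in single events for signals of 60 to under 100.

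Tight pairs were spread over all 19 chromosomes. Their number ran from 43 each on chr03 and chr15 to 108 on chr18. As a share of a chromosome's events, members were most frequent on chr08 (10.1%, 8.83 to 11.5%), chr14 (9.70%) and chr19 (9.66%), and least on chr03 (6.84%, 5.57 to 8.37%), chr11 (7.33%) and chr15 (7.38%). The intervals of 17 chromosomes include the 8.63% of all, and those of chr08 and chr03 do not. Members enter only in pairs, so these intervals are too narrow, and they do not set any chromosome apart. Relative to span, chr08 had 4.26 pairs per Mb and chr03 2.08. The median spacing lay between 108 bp on chr18 and 137.5 bp on chr02, and the median ratio between 1.49 on chr17 and 1.91 on chr19. The median sum ran from 116 on chr09 to 174 on chr03, the chromosome with the smallest share of members.

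Of 449 full windows of 1 Mb, 53 (11.8%) held no tight pair, and the median window held 2 (quartiles 1 and 4). The windows without a tight pair held a median of 27 events. Of the 449 windows, 121 held 41 to 60 events, 108 held 61 to 80 and 98 held 81 to 100. The window with most tight pairs was on chr07 from 24000001 to 25000000, with 10 pairs among 92 events. Windows of 9 pairs lay on chr01 from 4000001 to 5000000, chr09 from 13000001 to 14000000, chr11 from 18000001 to 19000000 and chr17 from 6000001 to 7000000. The share of members was lower in windows with few events. It was 6.08% (3.78 to 9.65%) in windows of 1 to 20 events, 6.85% (5.73 to 8.16%) at 21 to 40, 8.47% at 41 to 60, 8.75% at 61 to 80, 9.15% (8.56 to 9.77%) at 81 to 100 and 8.65% (7.87 to 9.50%) above 100. The middle 33.3% of a chromosome's span held 27.6% (25.9 to 29.3%) of members, 27.6% of spaced pairs and 26.8% (26.2 to 27.4%) of single events.

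By the rule, the nearest event outside a pair is over 1000 bp away. The median distance to it was 4354 bp (4068 to 4645), close to the 4720 bp (4496 to 4944) of spaced pairs, and 4908 bp (4821 to 4987) for single events. In 89 pairs (6.91%) it exceeded 20000 bp. The most isolated pair lay on chr19 at 12396457 and 12396618, 162807 bp from any other event, with signals of 104 and 26. Events at most 200 bp apart also occurred inside larger groups, where 315 such gaps were found and not counted as members, so tight pairs hold 80.3% of the 1603 gaps of that size. Those 315 had a median spacing of 129 bp and median signals of 105.9 and 47.7, against 88.9 and 45.4 in tight pairs. Higher signals were thus not particular to tight pairs. Their sums were whole in 42.9%, against 76.5% of all tight pairs, but each such sum leaves out the rest of its group.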

How the data were processed

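Grapevine leaf DNA retained by MYBPA1 or by the pIX-HALO tag was sequenced in 2 libraries each. Reads went through fastp 0.21.0 and Bowtie2 2.0, per the submitters' processing notes. GEM is named only by the title of the deposited list. Its version, settings and control, the build and any pooling of libraries were not given in the sources used here. For each event the authors deposited a display score (not used further), a signal, a −log10 p and a −log10 q, all made by their caller and with commas as decimal marks. The list's lowest −log10 q is 2 and its largest written value is 999. Depth is unknown.

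Centres were the middle base of each event, counted from 1. Groups were joined at 1000 bp, and pairs of at most 200 bp were kept. Medians have binomial order-statistic intervals and shares Wilson intervals, both at 95%. The grouping and the intervals of medians were tested on simulated data. Those data had independent values and no planted spacing at exactly the 200 or 1000 bp limit. The Wilson intervals were not simulated. No resampling or other chance test was run, and no fit across samples was possible. Members, classes and measures were chosen with earlier results of these data known. Pairs were named as the 10 highest sums, the 5 closest, the 5 largest ratios, the 5 smallest ratios with both signals over the 90th percentile, and 2 on each side of the limit. Another 3 were named after their values were seen: the equal pair, the most isolated pair and the chr12 pair with both members in the top 1%. A planned count of MYB motifs needs a genome of this build and was not run. Alternatives were −log10 q of at least 5, joining at 500 and 2000 bp, spacing of at most 100 bp, and adding chr00. Software was scipy 1.17.1, numpy 2.4.6, matplotlib 3.10.9 and pandas 2.3.3 under Python 3.11.15.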

Additional observations from a re-analysis of the deposited data

How the results depend on the processing

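Of 40 values (8 results under 5 alternatives), 29 stayed within the counting interval of the main value or, for the number of pairs, within 1.5 times of it. The median ratio of stronger to weaker signal (1.69 to 1.72), the share of members with a whole-number signal (10.04 to 10.6%) and the share of pairs with the stronger event at the higher coordinate (45.5 to 48.5%) did so under all 5. The interval of the last includes 50% at −log10 q of at least 5 (43.9 to 50.7%) and at 100 bp (43.6 to 53.4%). It lies below 50% for the main pairs (44.1 to 49.5%) and with chr00 added (44.3 to 49.7%). The same holds for joining at 500 bp (44.5 to 49.7%) and 2000 bp (42.5 to 48.6%). Only 837 pairs were formed among events with −log10 q of at least 5, with 9.59% of events as members, a median spacing of 112 bp and a median signal of 84.7. With centres at most 100 bp apart there were 400 pairs, a member share of 2.68%, a median spacing of 76 bp, a median signal of 87.5 and a whole sum in 73.6% of fractional pairs. The first of these selects on event strength and the second on spacing. Joining at 500 and 2000 bp changed the member share to 9.71 and 6.86%. Adding chr00 kept all 1288 main pairs and added 21, so its values could hardly move. Joining at 500 bp (1448 pairs) also kept all main pairs, and joining at 2000 bp (1024 pairs) kept only main pairs. The 29 values are therefore not independent checks. The whole-sum share was added after the data were seen. No paired analysis was possible because libraries have no separate values, and leaving out a replicate was not run for the same reason. With depth unknown, weaker partners that the list omits cannot be counted.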

Other observations

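On chr00, which gathers unplaced grapevine sequence, the same rule gave 21 tight pairs, or 42 of 482 events (8.71%, 95% Wilson interval 6.51 to 11.6%). Their median spacing was 117 bp, their median ratio of stronger to weaker signal 1.62, and 20 of the 21 had a whole sum. The median sum was 211, against 139 in the pairs of chr01 to chr19, and the highest was 752. Neighbouring positions on chr00 need not be neighbours in the genome, and the difference was not tested.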
